A study of Arabidopsis thaliana with 12 samples.

Results

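The genotype by ABA interaction was examined gene by gene in 7-day-old Arabidopsis seedlings, to find out which functional groups had a smaller or a larger ABA response in *nup85-1* than in Col-0. The interaction is the log2 fold change between ABA and mock in *nup85-1* minus the same fold change in Col-0. A negative value therefore means a weaker induction or a stronger repression in *nup85-1*, and a positive value a stronger induction or a weaker repression. All 33323 nuclear genes among the 33602 genes of the count table were taken, without regard to their values, and 20454 of them had enough reads to be tested with all 3 replicates.

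There were 4 groups of 3 libraries. *nup85-1* (genotype label nup85) seedlings were kept for 3 h in liquid half-strength MS medium with 50 μM ABA or in the same medium without ABA (mock), and wild type Col-0 seedlings were treated in the same way. *nup85-1* is 1 T-DNA insertion line of *NUP85*, a subunit of the NUP107-160 subcomplex of the nuclear pore, so that effects of the line and of the gene cannot be told apart here. Whole seedlings were used, and the labels do not say whether replicates were separate cultures, so the p-values measure only the spread between these libraries.

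ABA is the plant hormone of water deficit. It is bound by PYR/PYL/RCAR receptors, which then inhibit clade A PP2C phosphatases. This frees SnRK2 kinases, which activate bZIP factors such as the ABFs and ABI5, and these switch on genes of protective proteins through ABRE sequences. Growth genes, among them many auxin-induced SAUR genes, are repressed in the same period. Nuclear pores carry mRNA and proteins between nucleus and cytoplasm, and several subunits of the NUP107-160 subcomplex are known for roles in hormone and stress responses.

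*NUP85* itself (AT4G32910; TAIR10.1 chr4:15881245-15885518, plus strand) goes against the labels in replicate 3. In the libraries labelled *nup85-1* it had 3.20, 1.98 and 16.96 CPM (reads per 1000000 reads after TMM scaling) with ABA in replicates 1, 2 and 3, and 3.54, 1.73 and 27.5 CPM under mock. In Col-0 it had 40.0, 41.5 and 29.3 CPM with ABA and 31.3, 29.1 and 16.1 CPM under mock. Replicates 1 and 2 of the genotypes did not overlap under either treatment, whereas the library labelled *nup85-1* mock replicate 3 lay above Col-0 mock replicate 3. For this reason the main counts and medians are given with all 3 replicates and with replicates 1 and 2, and replicate 3 alone (1 library a group, without a test) is set beside them. Counts of genes induced or repressed by ABA, ABA responses and interactions given without a set are those of all 3 replicates. The total of reads on genes was 6616931 to 29798437 per library, and plastid and mitochondrial genes took 0.0628 to 3.75% of them. All 15 root, 7 guard cell lineage and 5 leaf marker genes were counted, and none was without reads. Summed leaf markers ranged over 10100-30520 CPM in *nup85-1* with ABA, 35120-41620 CPM in *nup85-1* mock, 16320-26140 CPM in Col-0 with ABA and 29680-45510 CPM in Col-0 mock.

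**Figure D1:**
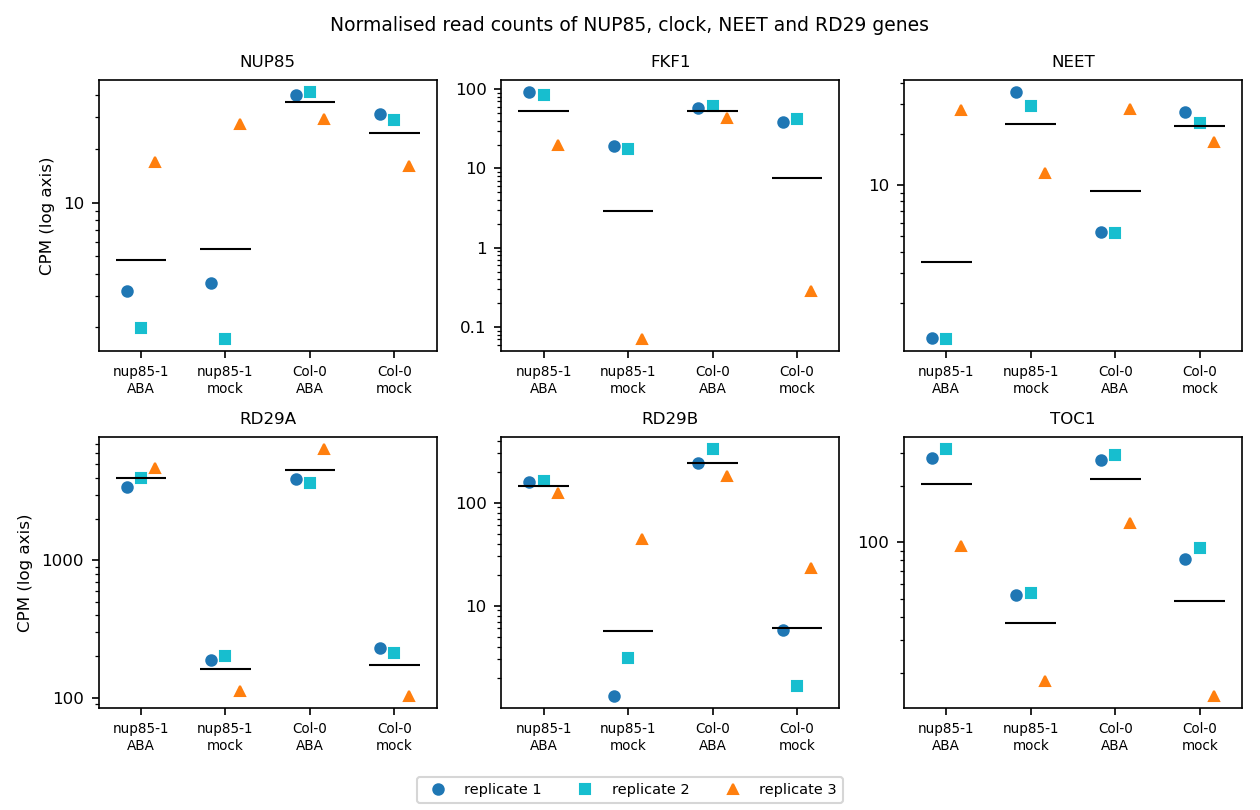
Normalised read counts (CPM, log axis) of 6 genes in the 12 libraries, by group; points are libraries, colours and shapes mark the replicate, and lines are geometric means. *NUP85* in replicate 3 labelled *nup85-1* was 16.96 CPM with ABA and 27.5 CPM under mock, far above the other libraries of that genotype, and *FKF1*, *TOC1* and *NEET* in replicate 3 also lay apart from replicates 1 and 2.

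With all 3 replicates, the ABA response of no single nuclear gene differed between the genotypes at an adjusted p under 0.05 (edgeR, 0 of 20454 genes, 0%). Without adjustment 309 genes (1.51%) had a p under 0.05, of which 125 (0.611%) had a negative and 184 (0.9%) a positive interaction. With replicates 1 and 2, the adjusted threshold was met by 2 of 20370 genes (0.00982%), 1 in each direction (0.00491% each). Without adjustment 1902 genes (9.34%) met it, of which 943 (4.63%) were negative and 959 (4.71%) positive. The unadjusted sets shared 205 genes of the same direction, 66.3% of the smaller and 10.8% of the larger set, of which 84 were negative and 121 positive. These sets share libraries, so the overlap is a description. Within each treatment the same-numbered libraries of the genotypes deviated together, and with the replicate number as a block within each treatment (edgeR) all 3 replicates still gave 0 calls (lowest adjusted p = 0.129), but 1622 genes (7.93%) without adjustment, 738 negative (3.61%) and 884 positive (4.32%). Replicates 1 and 2 gave 5 calls with this block, *FKF1*, *NEET*, AT1G07050, AT4G33070 and *MIR167d*, and 0 with 1 block per number over both treatments. DESeq2 called 1 gene with all 3 replicates and 68 with replicates 1 and 2, of which 42 were negative and 26 positive.

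Genes at an unadjusted p under 0.05 (edgeR) in replicates 1 and 2 had the same and the opposite sign about equally often in replicate 3. Of the 943 genes with a negative interaction at an unadjusted p under 0.05 in replicates 1 and 2, 463 (49.1%) were also negative in replicate 3 alone, and of the 959 positive genes 501 (52.2%) were also positive. Over all nuclear genes the direction was shared by 48.6%. Of the 68 genes called by DESeq2 in replicates 1 and 2, 42 had the same direction in replicate 3, a larger share than over all nuclear genes. The labels do not say what the libraries of replicate 3 share apart from the number.

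The 2 genes past the threshold in replicates 1 and 2 were *FKF1* and *NEET*. *FKF1* (AT1G68050) encodes a blue light receptor F-box protein of the evening clock output. It had 91.2, 83.9 and 19.8 CPM in *nup85-1* with ABA, 19.4, 17.5 and 0.0717 CPM in *nup85-1* mock, 57.1, 61.7 and 43.7 CPM in Col-0 with ABA and 38.3, 41.9 and 0.282 CPM in Col-0 mock. In replicates 1 and 2 *nup85-1* was above Col-0 with ABA and below it under mock, whereas in replicate 3 *nup85-1* was below Col-0 with either treatment and the mock libraries held 1 read in *nup85-1* and 4 reads in Col-0. Its interaction was 1.67 with replicates 1 and 2 (edgeR, SE 0.17, adjusted p = 0.0499), 1.39 with all 3 (edgeR, SE 1.80, adjusted p = 1.00) and -0.11 in replicate 3 alone. With so few mock reads the last value depends on the prior count, and without one it was 0.83.

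*NEET* (AT5G51720) is annotated as an iron-sulfur cluster binding protein. It had 1.25, 1.24 and 28.0 CPM in *nup85-1* with ABA, 35.4, 29.3 and 11.8 CPM in *nup85-1* mock, 5.30, 5.22 and 28.4 CPM in Col-0 with ABA and 27.2, 23.2 and 18.1 CPM in Col-0 mock. ABA libraries were below mock libraries in replicates 1 and 2 and above them in replicate 3, in both genotypes. The interaction was -2.43 with replicates 1 and 2 (edgeR, SE 0.25, adjusted p = 0.0499), -0.50 with all 3 (edgeR, SE 1.47, adjusted p = 1.00) and 0.59 in replicate 3 alone. Both calls stood at the edge of the threshold, and the count was 0 when any one of 7 of the 8 libraries was left out and 189 without Col-0 mock replicate 1.

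The lowest adjusted p with all 3 replicates belonged to *NAP* (AT1G69490), a NAC transcription factor known from leaf senescence. It had 24.3, 29.9 and 24.9 CPM in *nup85-1* with ABA, 19.7, 22.5 and 18.7 CPM in *nup85-1* mock, 32.0, 35.6 and 28.6 CPM in Col-0 with ABA and 10.5, 9.71 and 8.66 CPM in Col-0 mock. All 3 mock libraries of *nup85-1* lay above all 3 of Col-0, while with ABA the genotypes overlapped. The ABA response was 0.38 in *nup85-1* (edgeR adjusted p = 0.0666) and 1.74 in Col-0 (edgeR adjusted p = 2.32e-05) on the log2 scale. The interaction was -1.36 with all 3 replicates (edgeR, SE 0.21, adjusted p = 0.789), -1.37 with replicates 1 and 2 and -1.30 in replicate 3 alone. This was the 1 gene that DESeq2 called with all 3 replicates (-1.38, adjusted p = 0.000233). The value stayed between -1.49 and -1.28 over the 25 alternatives.

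Across gene groups, heat shock genes had the lowest median interaction of the 42 lists and SAUR genes the highest. The median was -1.01 for 18 heat shock genes and 0.71 for 60 SAUR genes with all 3 replicates, against 0.02 for all nuclear genes tested. Both kept their sign in replicates 1 and 2 and in replicate 3 alone. In replicate 3 the *NUP85* level goes against the label *nup85-1*, so its sign is no sure repeat of a genotype difference. Guard cell lineage markers (0.56) and iron homeostasis genes (0.45) followed SAUR genes, and genes of the RD29, COR, dehydrin and LEA group (-0.35) and of sugar starvation (-0.30) followed heat shock genes.

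**Figure D2:**
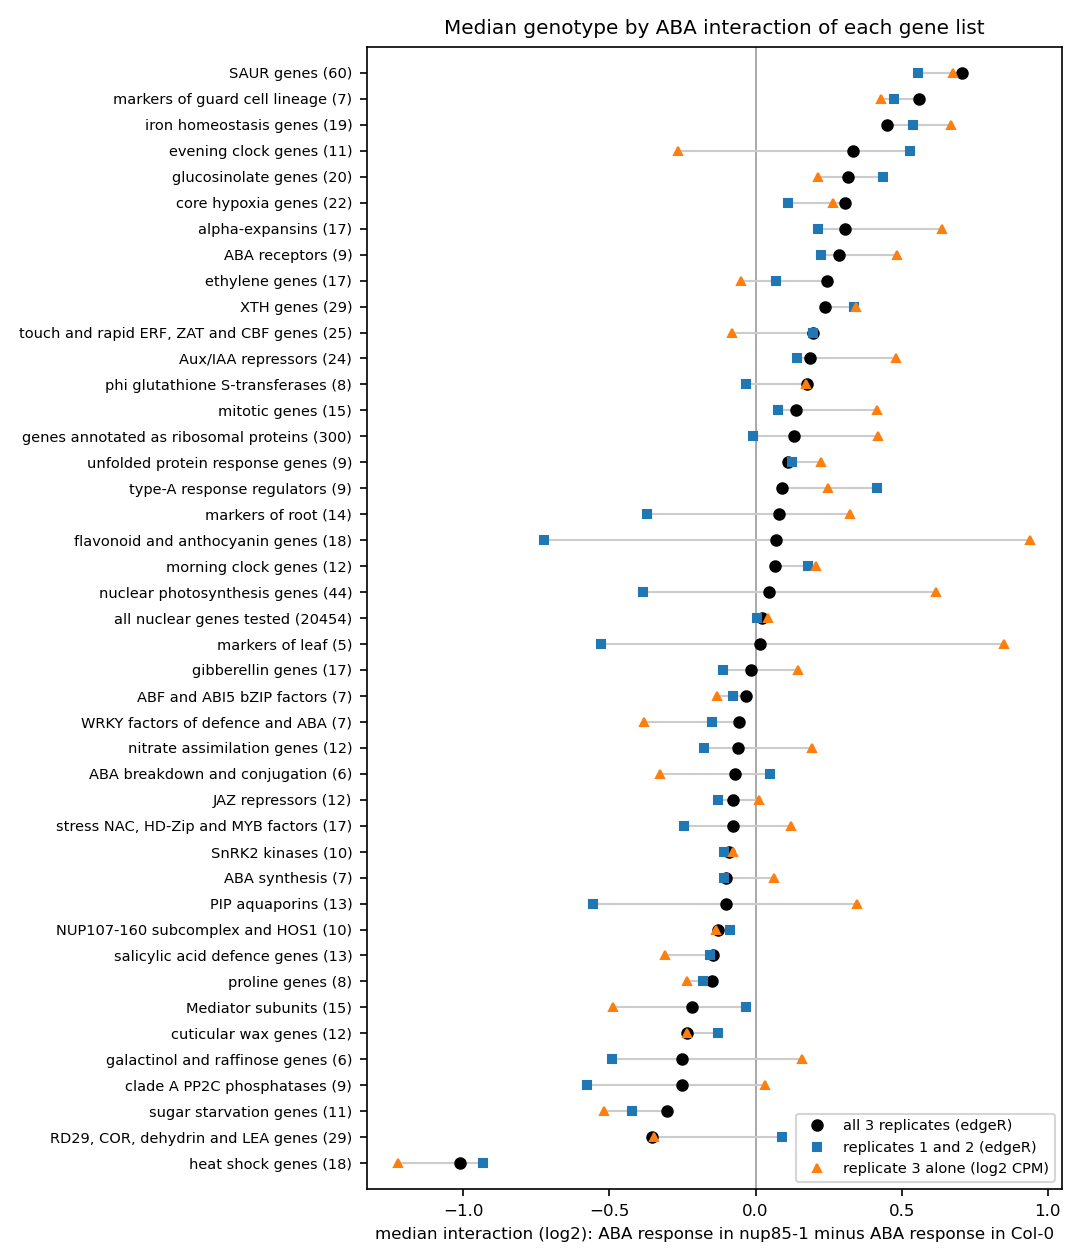
Median interaction (log2, x axis) of each gene list (y axis, number of genes tested with all 3 replicates in brackets), with all 3 replicates (circles), with replicates 1 and 2 (squares) and in replicate 3 alone (triangles). Heat shock genes lie at -1.01 and SAUR genes at 0.71 with all 3 replicates, whereas flavonoid and photosynthesis genes lie on opposite sides of 0 in replicates 1 and 2 and in replicate 3.

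Heat shock genes had the clearest common direction, a smaller induction by ABA in *nup85-1*. Of the 18 genes tested (of 19), ABA induced 11 in *nup85-1* and 15 in Col-0 (edgeR, adjusted p under 0.05), as it did 17.3% of nuclear genes in *nup85-1* and 19.2% in Col-0. The median ABA response was 2.25 in *nup85-1* and 2.99 in Col-0 on the log2 scale. All 18 had a negative interaction with all 3 replicates, against 47.1% of nuclear genes, and 4 were at an unadjusted p under 0.05 (0.611% of nuclear genes were, in this direction) and none in the positive direction. With replicates 1 and 2, 17 of 18 were negative (49.6% of nuclear genes), 10 at an unadjusted p under 0.05 (4.63%), with a median of -0.93. In replicates 1, 2 and 3 taken alone the medians were -1.18, -0.35 and -1.22, and 12 of 18 genes were negative in each of them, as were 14.3% of all nuclear genes. With the block within each treatment and all 3 replicates, 13 were negative at an unadjusted p under 0.05 (3.61% of nuclear genes) and none positive. After ABA the median difference of *nup85-1* from Col-0 was -0.78 and all 18 genes were lower. Under mock it was 0.27 and 6 were lower, so that both treatments entered the interaction. Of all 20454 nuclear genes tested, 10228 were lower in *nup85-1* with ABA and 10083 under mock. Single libraries moved the median, to -1.60 without *nup85-1* ABA replicate 3 and to -0.35 without *nup85-1* mock replicate 3.

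The small heat shock proteins, chaperones that bind unfolding proteins, had the largest differences. *HSP17.4* (AT3G46230) had 17.04, 15.2 and 34.4 CPM in *nup85-1* with ABA, 3.35, 3.73 and 4.66 CPM in *nup85-1* mock, 24.4, 26.3 and 49.7 CPM in Col-0 with ABA and 2.29, 1.52 and 2.04 CPM in Col-0 mock. In each replicate the ABA library of *nup85-1* was below and its mock library above that of Col-0. *HSP17.4* was named for a negative interaction in both sets and in replicate 3, so its shared sign is no result. Its interaction was -1.57 with all 3 replicates (edgeR, SE 0.53, adjusted p = 1.00), -1.47 with replicates 1 and 2 (edgeR, SE 0.29, adjusted p = 0.222) and -1.67 in replicate 3 alone.

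AT1G53540, annotated as an HSP20-like chaperone, had 6.88, 6.74 and 15.5 CPM in *nup85-1* with ABA, 1.44, 1.60 and 0.717 CPM in *nup85-1* mock, 14.5, 12.7 and 31.7 CPM in Col-0 with ABA and 0.265, 0.910 and 0.352 CPM in Col-0 mock. Its mock values rest on 15, 12 and 10 reads in *nup85-1* and on 3, 6 and 5 reads in Col-0. The same order of genotypes as for *HSP17.4* was seen in every replicate, and the interaction was -2.41 with all 3 replicates (edgeR, SE 0.82, adjusted p = 1.00) and -2.54 with replicates 1 and 2 (edgeR, SE 0.53, adjusted p = 0.252). Neighbouring small heat shock genes are alike in sequence, and reads may have been split between them.

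*HSP17.6A* (AT5G12030) had 11.96, 11.6 and 35.8 CPM in *nup85-1* with ABA, 2.78, 1.33 and 4.80 CPM in *nup85-1* mock, 25.4, 18.7 and 57.1 CPM in Col-0 with ABA and 1.41, 1.52 and 1.27 CPM in Col-0 mock. Its interaction was -1.91 with all 3 replicates and -1.47 with replicates 1 and 2. *HSP23.6-MITO* (AT4G25200), a small heat shock protein of mitochondria, had 5.15, 5.19 and 23.3 CPM in *nup85-1* with ABA and 13.6, 8.73 and 34.8 CPM in Col-0 with ABA, and between 8 and 35 reads in *nup85-1* mock and between 3 and 7 in Col-0 mock. Its interaction was -2.63 with all 3 replicates and -2.12 with replicates 1 and 2. For both genes the ABA library of *nup85-1* was below that of Col-0 in every replicate.

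The large chaperones *HSP101* and *HSP90.1* had interactions of -0.95 and -1.12 with all 3 replicates, and *HSFA2*, a heat shock factor that switches on these genes, -1.07. None of these passed even the unadjusted threshold with all 3 replicates. *HSP101* had 42.8, 51.0 and 119 CPM in *nup85-1* with ABA and 91.6, 58.6 and 201 CPM in Col-0 with ABA. *HSP21*, a plastid small heat shock protein, had no reads in any Col-0 mock library, so that its fitted value of -6.13 is no bound. With Col-0 mock set to 3 reads per library its interaction was -0.86, and the median of the list was then -0.93.

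The 250 bases upstream of the start that RefSeq annotates for 2 heat shock genes are shown for the heat shock element, the site of heat shock factors. It was searched as GAANNTTC on both strands, and matches are in capitals. The window of *HSP17.4* (TAIR10.1 chr3:16984868-16985117, minus strand) holds 2 matches and that of AT1G53540 (TAIR10.1 chr1:19980049-19980298, plus strand) holds 1, whereas those of *HSP17.6A* and *HSP23.6-MITO* hold none. In *HSP17.4* a G-box (cacgtg) lies outside the matches. The searched form was in 27.8% of the 18 windows of the list, against 9.3% of the 19917 windows of protein-coding nuclear genes tested.
HSP17.4: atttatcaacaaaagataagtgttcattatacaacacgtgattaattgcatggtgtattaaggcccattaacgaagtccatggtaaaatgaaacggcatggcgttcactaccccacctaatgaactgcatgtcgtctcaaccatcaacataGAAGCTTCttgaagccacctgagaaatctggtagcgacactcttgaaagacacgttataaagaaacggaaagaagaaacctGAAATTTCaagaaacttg
AT1G53540: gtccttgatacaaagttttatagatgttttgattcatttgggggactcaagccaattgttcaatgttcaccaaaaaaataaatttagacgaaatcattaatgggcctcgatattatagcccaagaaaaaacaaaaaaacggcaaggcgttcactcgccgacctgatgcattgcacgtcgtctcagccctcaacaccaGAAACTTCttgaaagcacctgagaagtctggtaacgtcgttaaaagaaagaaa

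SAUR genes, small auxin-induced genes that promote cell elongation, had a smaller repression by ABA in *nup85-1*. Of 80 genes, 60 were tested with all 3 replicates, and ABA repressed 11 of them in *nup85-1* and 24 in Col-0 (edgeR, adjusted p under 0.05), as it did 15% of nuclear genes in *nup85-1* and 18.1% in Col-0. Another 7 in *nup85-1* and 6 in Col-0 were induced. The list had a median ABA response of -0.56 in *nup85-1* and -1.12 in Col-0 on the log2 scale. The interaction was positive in 53 of them, against 52.9% of nuclear genes, and 6 were at an unadjusted p under 0.05 in this direction (0.9% of nuclear genes) and 0 in the other. With replicates 1 and 2, 46 of 59 were positive (50.4% of nuclear genes), 12 of them at an unadjusted p under 0.05 (4.71% of nuclear genes) and 1 in the negative direction. The block within each treatment gave 20 of 60 positive at an unadjusted p under 0.05 with all 3 replicates (4.32% of nuclear genes) and none negative. The medians in replicates 1, 2 and 3 alone were 0.59, 0.44 and 0.67, and 25 of 60 genes were positive in each of them, as were 15.5% of all nuclear genes. SAUR genes were already higher in *nup85-1* under mock (median 0.51, lower in 12 of 60) and more so after ABA (median 0.89, lower in 5 of 60). Many SAUR genes lie in tandem arrays of near-identical copies, so that counts of single members are uncertain.

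**Figure D3:**
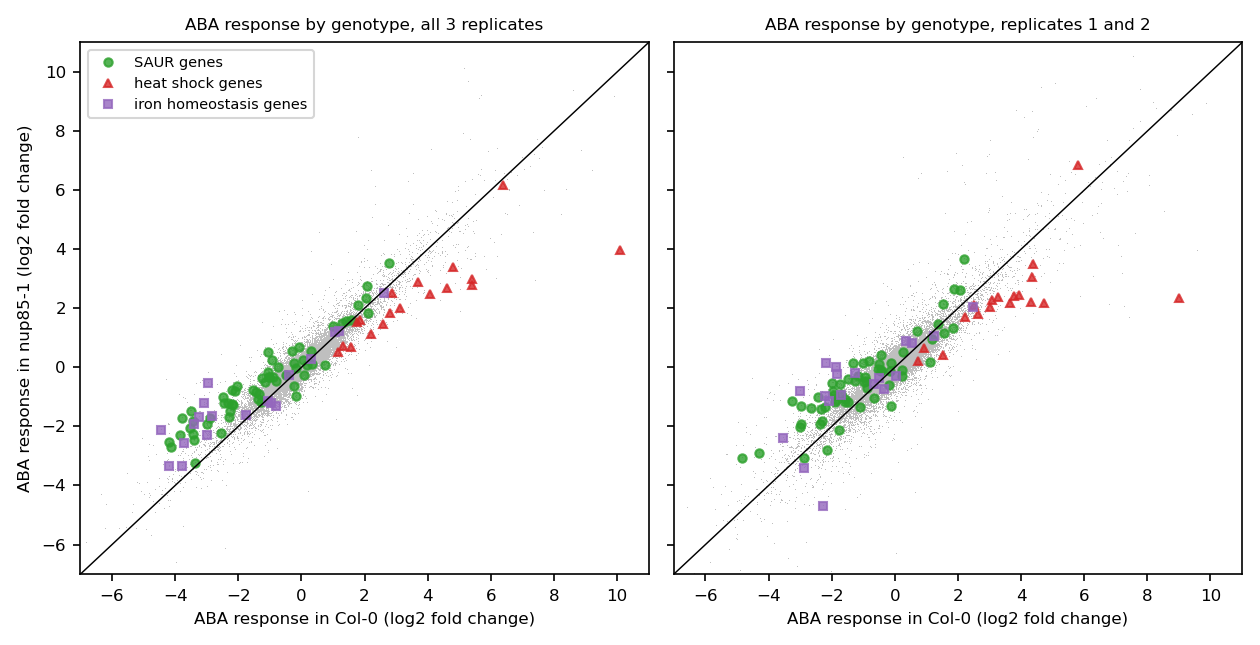
ABA response (log2 fold change between ABA and mock) in *nup85-1* (y axis) against Col-0 (x axis) with all 3 replicates (left) and replicates 1 and 2 (right); grey dots are nuclear genes and the line marks equal responses. SAUR genes (median -0.56 in *nup85-1* and -1.12 in Col-0 with all 3 replicates) lie mostly above the line, and heat shock genes (2.25 and 2.99) below it.

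AT2G21210, annotated as SAUR-like, had 59.7, 63.1 and 54.4 CPM in *nup85-1* with ABA, 94.1, 84.0 and 94.7 CPM in *nup85-1* mock, 13.2, 11.7 and 18.1 CPM in Col-0 with ABA and 56.8, 41.1 and 78.5 CPM in Col-0 mock. The genotypes did not overlap after ABA, where each *nup85-1* library was above each Col-0 library, nor under mock, where the gap was smaller. The ABA response was -0.62 in *nup85-1* (edgeR adjusted p = 0.0571) and -2.03 in Col-0 (edgeR adjusted p = 0.000123). Its interaction was 1.41 with all 3 replicates (edgeR, SE 0.32, adjusted p = 1.00), 1.44 with replicates 1 and 2 (edgeR, SE 0.23, adjusted p = 0.144) and 1.31 in replicate 3 alone.

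AT4G38860, also SAUR-like, had 16.2, 17.62 and 14.0 CPM in *nup85-1* with ABA, 139, 116 and 57.6 CPM in *nup85-1* mock, 3.82, 2.61 and 3.80 CPM in Col-0 with ABA and 80.7, 50.2 and 48.8 CPM in Col-0 mock. Repression was strong in both genotypes, with -2.71 in *nup85-1* and -4.12 in Col-0, and after ABA the *nup85-1* libraries were all above those of Col-0. The interaction was 1.41 with all 3 replicates and 1.39 with replicates 1 and 2. AT4G34760 had 26.8, 31.0 and 12.9 CPM in *nup85-1* with ABA and 8.24, 9.85 and 3.87 CPM in Col-0 with ABA, and an interaction of 1.32 with all 3 replicates. AT4G38840 had 15.5, 21.0 and 14.5 CPM in *nup85-1* with ABA and 3.64, 4.03 and 3.17 CPM in Col-0 with ABA, and an interaction of 1.58. For these 2 genes too the ABA libraries of the genotypes did not overlap. The SAUR-like genes named here were chosen for a positive interaction in both sets and in replicate 3, so their shared sign is no result.

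**Figure D4:**
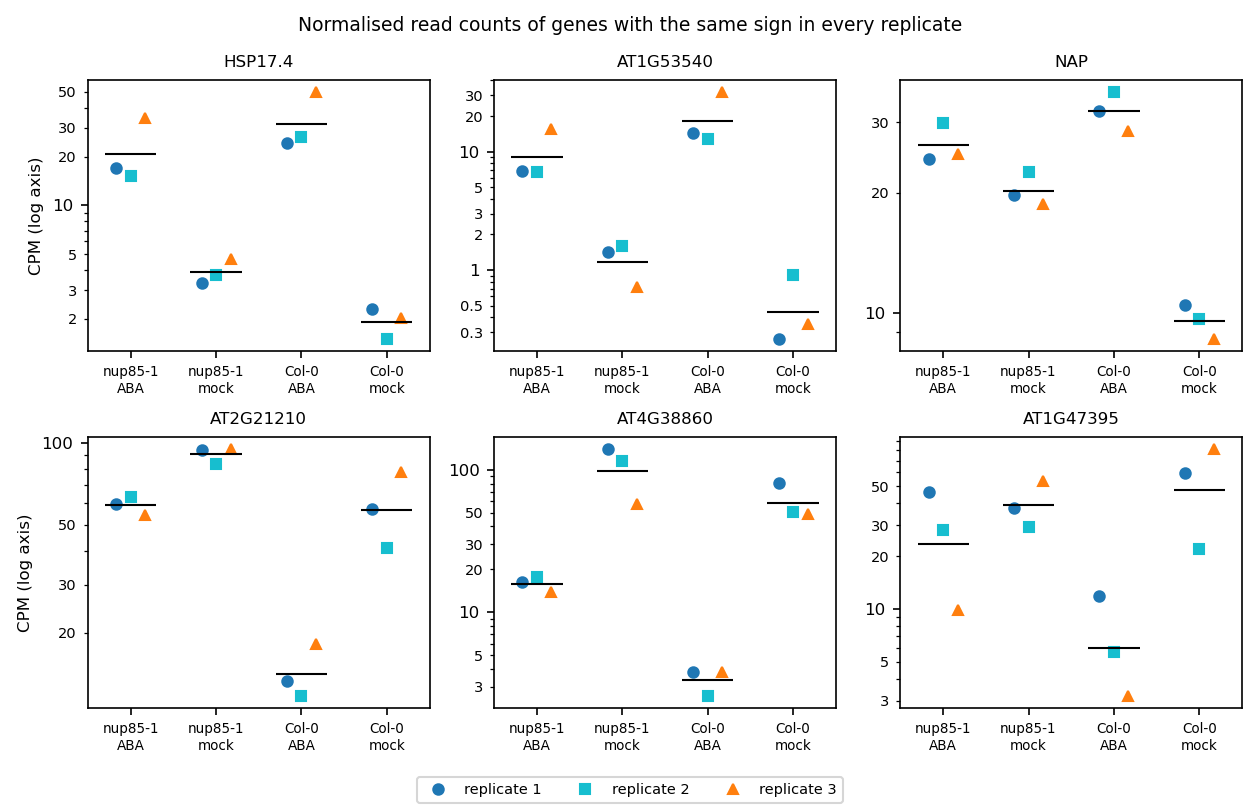
Normalised read counts (CPM, log axis) in the 12 libraries of 6 genes whose interaction had the same sign in replicates 1, 2 and 3 alone. Points are libraries, shapes and colours mark the replicate, and lines are geometric means. All but AT1G53540 were named for the same sign in both sets and in replicate 3, so this sign is no result. Of all nuclear genes tested, 14.3% were negative and 15.5% positive in each replicate alone. *HSP17.4*, AT1G53540 and *NAP* are higher under mock and lower with ABA in *nup85-1* on average, whereas AT2G21210 and AT4G38860 after ABA are higher in every *nup85-1* library, at 54.4 to 63.1 and 14.0 to 17.62 CPM.

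Other growth genes had smaller median interactions of the same sign. For 17 alpha-expansins, which loosen cell walls, the median was 0.30 with all 3 replicates, where 16 were positive, and 0.21 with replicates 1 and 2, where 11 were. In replicate 2 alone it was -0.13, with 11 of 17 negative. The median ABA response of alpha-expansins was -1.08 in *nup85-1* and -1.62 in Col-0 with all 3 replicates, a smaller repression. XTH genes of xyloglucan remodelling had a median of 0.24 with all 3 replicates and 0.34 with replicates 1 and 2. In each replicate alone 15 of 29 were positive, as were 15.5% of all nuclear genes. The median ABA response of XTH genes was 0.82 in *nup85-1* and 0.40 in Col-0 with all 3 replicates. Their positive median thus went with a larger induction and not with a smaller repression. *BEE1* (AT1G18400), a brassinosteroid-induced bHLH factor of growth, was induced by ABA in both genotypes. It had 36.4, 37.7 and 22.3 CPM in *nup85-1* with ABA, 5.45, 4.80 and 2.65 CPM in *nup85-1* mock, 17.9, 19.9 and 15.2 CPM in Col-0 with ABA and 6.09, 10.3 and 3.52 CPM in Col-0 mock. With ABA all *nup85-1* libraries were above those of Col-0, and the interaction was 1.47 with all 3 replicates (edgeR, SE 0.53, adjusted p = 1.00), 1.60 with replicates 1 and 2 and 0.94 in replicate 3 alone.

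*LAC7*, *ACS6* and AT1G71140 were named because their interaction was negative in both sets and in replicate 3, so their shared sign is no result. The same holds for *NAP*, *HSP17.4* and *HSP17.6A*. It also holds, with a positive sign, for *BEE1*, AT1G47395 and the SAUR-like genes named above. Of all nuclear genes tested, 14.3% were negative and 15.5% positive in each replicate alone. *LAC7* (AT3G09220), a laccase, had 20.9, 16.5 and 14.6 CPM in *nup85-1* with ABA and 54.8, 57.3 and 37.9 CPM in Col-0 with ABA, without overlap, against 23.7, 25.5 and 17.2 CPM in *nup85-1* mock and 22.4, 35.9 and 20.8 CPM in Col-0 mock. Its ABA response was -0.35 in *nup85-1* and 0.93 in Col-0, and the interaction -1.28 with all 3 replicates and -1.36 with replicates 1 and 2. *ACS6* (AT4G11280), an ACC synthase of ethylene synthesis, had 57.4, 70.0 and 50.4 CPM in *nup85-1* mock and 19.9, 25.6 and 13.6 CPM in Col-0 mock, whereas with ABA it had 25.7, 21.9 and 36.8 CPM in *nup85-1* and 18.3, 18.1 and 28.5 CPM in Col-0. Here the larger gap between the genotypes was under mock, and the interaction was -1.22 with all 3 replicates and -1.11 with replicates 1 and 2. AT1G71140, annotated as a MATE efflux transporter, had 10.9, 14.5 and 22.3 CPM in *nup85-1* with ABA and 21.3, 18.1 and 46.4 CPM in Col-0 with ABA, and an interaction of -1.33 with all 3 replicates and -1.17 with replicates 1 and 2.

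Iron homeostasis genes, most of them of the deficiency response, had a smaller repression by ABA in *nup85-1*, with a wide spread between libraries. ABA repressed 3 of the 19 genes in *nup85-1*, a share near the 15% of nuclear genes, and 10 in Col-0 (18.1% of nuclear genes), and induced 2 in each genotype (edgeR, adjusted p under 0.05). The list had a median ABA response of -1.30 in *nup85-1* and -2.84 in Col-0, and 14 had a positive interaction with all 3 replicates, 1 of them at an unadjusted p under 0.05 (0.9% of nuclear genes) and 8 with the block within each treatment (4.32%). With replicates 1 and 2, 13 were positive, 5 at an unadjusted p under 0.05 (4.71%), and 1 (*NEET*) was so in the negative direction (4.63%). The median was 0.45 with all 3 replicates, 0.05 without Col-0 mock replicate 3, 1.26 without *nup85-1* mock replicate 3 and 1.31 without both replicate 3 libraries labelled *nup85-1*. In replicates 1, 2 and 3 alone it was 0.78, -0.03 and 0.67.

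AT1G47395, which the annotation calls an uncharacterized protein, had 46.1, 28.3 and 9.83 CPM in *nup85-1* with ABA, 37.4, 29.3 and 53.5 CPM in *nup85-1* mock, 11.8, 5.67 and 3.21 CPM in Col-0 with ABA and 59.4, 21.99 and 81.2 CPM in Col-0 mock. It was repressed in Col-0 (-2.97, edgeR adjusted p = 0.00523), with -0.52 in *nup85-1* (edgeR adjusted p = 0.550), and its interaction was 2.45 with all 3 replicates (edgeR, SE 0.88, adjusted p = 1.00) and 2.34 with replicates 1 and 2. *BHLH100* (AT2G41240), a bHLH factor induced by iron deficiency, had 27.1, 16.1 and 2.42 CPM in *nup85-1* with ABA and 4.28, 2.02 and 0.590 CPM in Col-0 with ABA, with 6.22 to 99.3 CPM in Col-0 mock and 32.1 to 123 CPM in *nup85-1* mock. *NAS4* (AT1G56430), a nicotianamine synthase, had an interaction of 1.19 with all 3 replicates and 0.94 with replicates 1 and 2, and *FRO2* (AT1G01580), the root ferric reductase, of 0.70 and 1.06. The mock level of *FRO2* was 194 CPM in *nup85-1* and 140 CPM in Col-0 in replicate 3, against 9.99 to 27.9 CPM in the other mock libraries. Ferritin genes *FER1* to *FER4*, which store iron, had interactions between -0.09 and 0.13.

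Guard cell lineage markers had a smaller repression by ABA in *nup85-1*, with 1 of 7 repressed in *nup85-1*, a share near the 15% of nuclear genes, and 4 in Col-0 (edgeR, adjusted p under 0.05, 18.1% of nuclear genes). Their median interaction was 0.56 with all 3 replicates and 0.47 with replicates 1 and 2. All 7 were positive in replicates 1 and 2 and 6 with all 3, where 1 was at an unadjusted p under 0.05 (0.9% of nuclear genes) and 4 with the block within each treatment (4.32%). Their summed level was 75.9 to 101 CPM in *nup85-1* with ABA, 87.2 to 134 CPM in *nup85-1* mock, 57.0 to 65.8 CPM in Col-0 with ABA and 94.0 to 136 CPM in Col-0 mock, so that the genotypes overlapped under mock and not with ABA. In whole seedlings, fewer cells of a type and less RNA per cell cannot be told apart. *MYB60* (AT1G08810), a guard cell MYB factor of stomatal opening, had 6.81, 8.65 and 5.87 CPM in *nup85-1* with ABA and 5.09, 5.75 and 4.94 CPM in Col-0 with ABA, with an ABA response of -0.49 in *nup85-1* (edgeR adjusted p = 0.0758) and -1.22 in Col-0 (edgeR adjusted p = 0.000797) and an interaction of 0.74. *FAMA* (AT3G24140), the bHLH factor of guard cell differentiation, had an interaction of 0.64 with all 3 replicates and 0.66 with replicates 1 and 2.

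The protective genes of the ABA response had fitted medians of opposite sign with all 3 replicates and with replicates 1 and 2. The sign of the latter depended on members with a group without reads. ABA induced 21 of 29 genes of the RD29, COR, dehydrin and LEA group in *nup85-1* and 26 in Col-0 (edgeR, adjusted p under 0.05, 17.3 and 19.2% of nuclear genes). Among these 29, 21 had a smaller induction in *nup85-1* with all 3 replicates and 13 with replicates 1 and 2, where 3 were at an unadjusted p under 0.05 (4.63% of nuclear genes), all negative. The block within each treatment gave 8 negative (3.61% of nuclear genes) and 1 positive at an unadjusted p under 0.05 with all 3 replicates, against 0 without the block. The median was -0.35 with all 3, 0.09 with replicates 1 and 2, and -0.0039 without both replicate 3 libraries labelled *nup85-1*. In replicates 1 and 2, 3 members had a group without any reads, and with these at 3 reads per library the median was -0.19. After ABA, 26 of 29 genes were lower in *nup85-1* (median -0.32), and under mock 19 were lower (median -0.10).

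*RD29A* (AT5G52310), the stress reporter gene of this field, had 3395, 3955 and 4674 CPM in *nup85-1* with ABA, 189, 202 and 113 CPM in *nup85-1* mock, 3909, 3685 and 6430 CPM in Col-0 with ABA and 230, 213 and 104 CPM in Col-0 mock. The genotypes overlapped under both treatments. *RD29A* was induced by 4.58 in *nup85-1* (edgeR adjusted p = 5.07e-05) and by 4.68 in Col-0 (edgeR adjusted p = 3.53e-05) on the log2 scale, and its interaction was -0.10 with all 3 replicates (SE 0.54) and 0.13 with replicates 1 and 2 (SE 0.25). *COR15A* and *COR47*, cold-regulated genes of chloroplast and cytosol proteins, had interactions of 0.11 (SE 0.41) and 0.41 (SE 0.59) with all 3 replicates. With replicates 1 and 2 these were 0.05 (SE 0.50) and 0.43 (SE 0.28). With ABA *COR47* had 3877, 3219 and 3691 CPM in *nup85-1* and 4289, 4507 and 3966 CPM in Col-0, without overlap. Under mock *COR47* was also lower in *nup85-1* in every replicate. *COR15A* with ABA had 679, 401 and 633 CPM in *nup85-1* and 827, 600 and 667 CPM in Col-0. It was lower in *nup85-1* in each replicate, but the ranges overlapped.

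*RD29B* (AT5G52300) had 158, 160 and 123 CPM in *nup85-1* with ABA, 1.34, 3.06 and 44.2 CPM in *nup85-1* mock, 240, 329 and 182 CPM in Col-0 with ABA and 5.83, 1.67 and 23.0 CPM in Col-0 mock. After ABA all *nup85-1* libraries were below those of Col-0, whereas the mock libraries overlapped and were highest in replicate 3 of both genotypes. Its interaction was -1.43 with all 3 replicates (edgeR, SE 1.48, adjusted p = 1.00), 0.13 with replicates 1 and 2, and 1.41, -1.87 and -1.51 in replicates 1, 2 and 3 alone. Its upstream window (TAIR10.1 chr5:21236771-21237020, plus strand) is shown because ABREs carry the ABA response. They were searched as ACGTGNC on both strands, and the 3 matches, none of which overlaps a G-box (CACGTG), are in capitals. The motif was in 44.8% of the windows of this list, against 9.7% of protein-coding nuclear genes tested.
RD29B: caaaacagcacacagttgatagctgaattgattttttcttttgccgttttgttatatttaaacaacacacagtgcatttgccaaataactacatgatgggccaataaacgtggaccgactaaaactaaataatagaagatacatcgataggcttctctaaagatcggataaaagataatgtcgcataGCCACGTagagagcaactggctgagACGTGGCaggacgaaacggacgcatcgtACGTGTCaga

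Among other members, *RD20* (AT2G33380), a caleosin, had 132, 148 and 682 CPM in *nup85-1* with ABA, 24.98, 23.1 and 101 CPM in *nup85-1* mock, 255, 198 and 730 CPM in Col-0 with ABA and 12.9, 14.9 and 106 CPM in Col-0 mock. The genotypes were apart in replicates 1 and 2 and nearly alike in replicate 3. The interaction was -1.49 with replicates 1 and 2 (edgeR, SE 0.22, adjusted p = 0.144), -0.45 with all 3 (edgeR, SE 1.36, adjusted p = 1.00) and -0.03 in replicate 3 alone. *RD22* (AT5G25610), a BURP domain protein, had interactions of -0.48 with all 3 replicates and -0.59 with replicates 1 and 2. AT3G15670, a LEA protein, had 283, 176 and 495 reads in *nup85-1* with ABA and 625, 356 and 1062 reads in Col-0 with ABA. Under mock it had 4, 3 and 59 reads in *nup85-1* and 0, 1 and 16 reads in Col-0, too few to give a fold change with replicates 1 and 2. With all 3 replicates its interaction was -2.57 (edgeR, SE 1.25, adjusted p = 1.00).

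Of the core signalling genes, the clade A PP2C phosphatases, which hold the pathway off until ABA is bound, had a negative interaction with all 3 replicates and with replicates 1 and 2, whereas 5 of 9 receptors, 5 of 10 SnRK2 kinases and 3 of 7 bZIP factors were positive with replicates 1 and 2. ABA induced 8 of 9 PP2C genes in *nup85-1* and 9 in Col-0 (edgeR, adjusted p under 0.05, 17.3 and 19.2% of nuclear genes). All 9 PP2C genes had a negative interaction with all 3 replicates (median -0.25) and all 8 tested with replicates 1 and 2 (median -0.58), 3 of these at an unadjusted p under 0.05 (4.63% of nuclear genes). In replicate 3 alone 4 of 9 were negative and the median was 0.03. No PP2C gene was lower in *nup85-1* under mock (median difference 0.39), and 5 of 9 were lower with ABA (median -0.08). Without *nup85-1* mock replicate 3 the median was 0.02, without both replicate 3 libraries labelled *nup85-1* it was 0.043, and without Col-0 mock replicate 3 it was -1.004.

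*HAI1* (AT5G59220), a PP2C strongly induced by ABA, had 345, 293 and 344 CPM in *nup85-1* with ABA, 7.27, 11.1 and 38.3 CPM in *nup85-1* mock, 537, 513 and 261 CPM in Col-0 with ABA and 8.65, 4.70 and 33.1 CPM in Col-0 mock. With ABA *nup85-1* was below Col-0 in replicates 1 and 2 and above it in replicate 3, and the interaction was -1.10 with replicates 1 and 2 (edgeR, SE 0.37, adjusted p = 0.453) and -0.69 with all 3. *HAI2* (AT1G07430) had -0.92 with replicates 1 and 2 and -0.49 with all 3, and *HAB1* (AT1G72770) -0.51 and -0.25. For *HAI2*, *nup85-1* mock was 9.86, 12.4 and 10.9 CPM and Col-0 mock 5.30, 4.09 and 10.6 CPM, while with ABA the ranges were 73.8 to 95.8 CPM in *nup85-1* and 68.7 to 72.5 CPM in Col-0.

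The SnRK2 kinase *OST1* (AT4G33950), the main ABA-activated kinase of guard cells, was induced by 1.58 in *nup85-1* and 2.04 in Col-0 on the log2 scale. Its interaction was -0.47 with all 3 replicates (edgeR, SE 0.26, adjusted p = 1.00), -0.48 with replicates 1 and 2 and -0.45 in replicate 3 alone. It had 79.1, 88.2 and 87.0 CPM in *nup85-1* with ABA and 90.7, 92.9 and 105 CPM in Col-0 with ABA, without overlap, but the mock libraries overlapped at 25.5 to 33.6 CPM in *nup85-1* and 18.8 to 29.6 CPM in Col-0. The other SnRK2 kinases named by the rule were *SNRK2.4* at 0.28 with all 3 replicates and 0.46 with replicates 1 and 2 and *SNRK2.8* at -0.38 and -0.79, and the list median was -0.09. Of the bZIP factors, *ABF3* had -0.96 with replicates 1 and 2 and -0.55 with all 3, and *ABF4* had -0.47 and -0.32. *ABF1* had 0.40 and 0.18, and *ABI5* had 0.28 and -0.03, in the same order. With ABA *ABI5* had 16.6, 15.1 and 7.83 CPM in *nup85-1* and 25.8, 26.3 and 11.1 CPM in Col-0, lower in each replicate. Its mock values rest on 7 to 32 reads per library. The 9 receptor genes tested had a median ABA response of -0.86 in *nup85-1* and -1.15 in Col-0, a median interaction of 0.28 with all 3 replicates and 0.22 with replicates 1 and 2, and none at an unadjusted p under 0.05 in either set.

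Genes of sugar starvation, which respond to low carbon status, were induced by ABA in 10 of 11 cases in *nup85-1* and in all 11 in Col-0 (edgeR, adjusted p under 0.05, 17.3 and 19.2% of nuclear genes). Of these, 9 had a negative interaction in each set, with a median of -0.30 with all 3 replicates and -0.42 with replicates 1 and 2. The median ABA responses were 2.66 in *nup85-1* and 2.64 in Col-0, so that the medians of the responses and of the interaction did not have the same sign. *TPS8* (AT1G70290), of the trehalose phosphate synthase family, had 199, 201 and 217 CPM in *nup85-1* with ABA, 177, 193 and 159 CPM in *nup85-1* mock, 211, 180 and 142 CPM in Col-0 with ABA and 95.1, 94.8 and 59.0 CPM in Col-0 mock. Every *nup85-1* mock library was above every Col-0 mock library, and the ABA libraries overlapped. Its interaction was -0.88 with all 3 replicates (edgeR, SE 0.30, adjusted p = 1.00), -0.93 with replicates 1 and 2 and -0.82 in replicate 3 alone. *TPS11* (AT2G18700) of the same family had -0.64 with all 3 replicates and -0.79 with replicates 1 and 2, and *ASN1* (AT3G47340), an asparagine synthetase of low sugar status, -0.84 with all 3 replicates, -1.02 with replicates 1 and 2 and 0.05 in replicate 3 alone.

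Evening clock genes, which peak late in the day, had a positive median interaction in replicates 1 and 2 and a negative one in replicate 3. With all 3 replicates ABA induced 3 of 11 in *nup85-1* and 4 in Col-0 (edgeR, adjusted p under 0.05), against 17.3 and 19.2% of nuclear genes. The median was 0.53 with replicates 1 and 2, where 6 of 11 genes were positive and 1 negative at an unadjusted p under 0.05 (4.71 and 4.63% of nuclear genes), and -0.27 in replicate 3 alone, where 9 were negative. With all 3 replicates it was 0.33, with no gene at an unadjusted p under 0.05. It was 0.058 with the block within each treatment (3 genes positive and 1 negative at an unadjusted p under 0.05, 4.32 and 3.61% of nuclear genes), 0.0070 with 1 block per number, 0.087 without both replicate 3 libraries labelled *nup85-1* and -0.10 without Col-0 mock replicate 2. *TOC1* (AT5G61380), a core clock repressor, had 283, 315 and 95.9 CPM in *nup85-1* with ABA, 52.2, 53.3 and 18.0 CPM in *nup85-1* mock, 276, 294 and 127 CPM in Col-0 with ABA and 81.1, 93.1 and 15.1 CPM in Col-0 mock. In replicates 1 and 2 the genotypes differed under mock, where *nup85-1* was lower, and were nearly alike with ABA. Its interaction was 0.79 with replicates 1 and 2 (edgeR, SE 0.18, adjusted p = 0.330), 0.61 with all 3 and -0.65 in replicate 3 alone.

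*PRR5* (AT5G24470), a pseudo-response regulator of the clock, had 123, 125 and 134 CPM in *nup85-1* with ABA, 48.7, 49.0 and 0.717 CPM in *nup85-1* mock, 74.5, 70.5 and 147 CPM in Col-0 with ABA and 72.4, 59.1 and 1.55 CPM in Col-0 mock. The mock level of replicate 3 was far below that of replicates 1 and 2 in both genotypes, as for *FKF1*. Its interaction was 1.204 with replicates 1 and 2 (edgeR, SE 0.17, adjusted p = 0.144), 0.82 with all 3 and 0.85 in replicate 3 alone. *LKP2* (AT2G18915), a relative of *FKF1*, had -0.69 with replicates 1 and 2 and -0.42 with all 3. The upstream windows of *FKF1* (TAIR10.1 chr1:25508389-25508638, plus strand) and *PRR5* (TAIR10.1 chr5:8358547-8358796, minus strand) are shown because each holds 1 evening element, a clock motif searched as AAAATATCT on both strands, which appears here in capitals as its reverse complement AGATATTTT. It was in 45.4% of the 11 windows of the list, against 2.5% of protein-coding nuclear genes tested.
FKF1: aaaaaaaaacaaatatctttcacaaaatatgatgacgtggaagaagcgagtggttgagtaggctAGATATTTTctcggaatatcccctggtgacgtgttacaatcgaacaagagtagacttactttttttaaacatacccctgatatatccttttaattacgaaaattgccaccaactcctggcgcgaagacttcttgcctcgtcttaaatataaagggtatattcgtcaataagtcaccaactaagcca
PRR5: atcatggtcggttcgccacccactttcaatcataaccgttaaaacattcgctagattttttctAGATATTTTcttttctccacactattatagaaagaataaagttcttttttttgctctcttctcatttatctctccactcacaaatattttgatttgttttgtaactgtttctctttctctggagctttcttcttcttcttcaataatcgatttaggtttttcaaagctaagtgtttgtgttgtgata

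**Figure D5:**
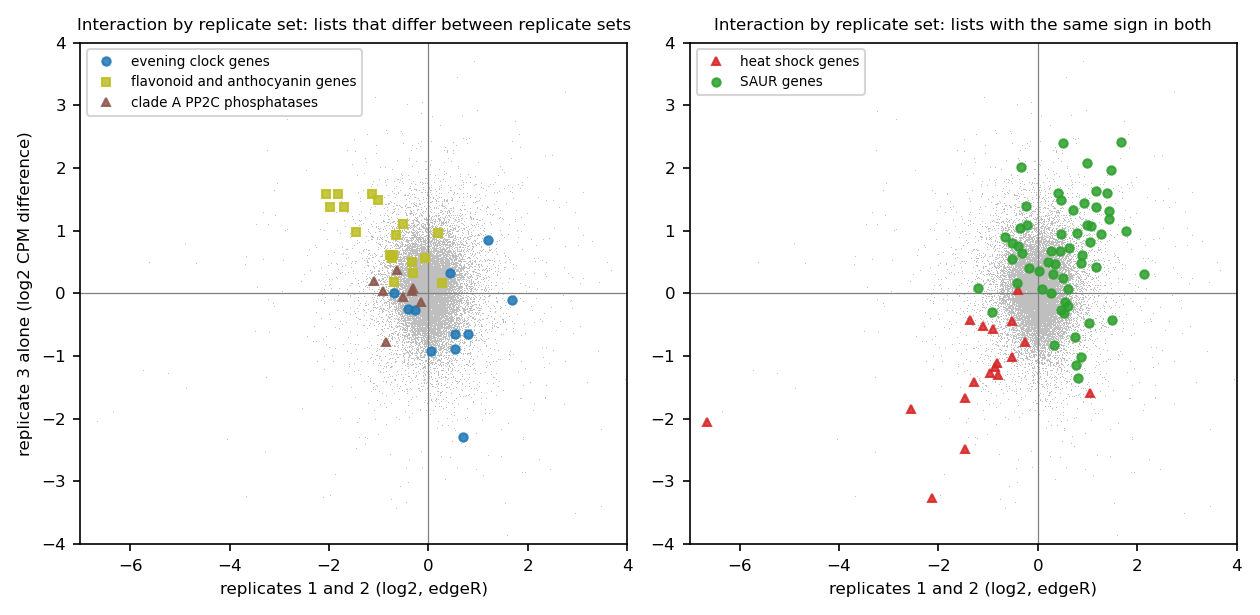
Interaction in replicate 3 alone (y axis, log2 CPM difference) against replicates 1 and 2 (x axis, log2, edgeR); grey dots are nuclear genes and symbols are list members. Evening clock, flavonoid and clade A PP2C genes (left) have medians of 0.53, -0.72 and -0.58 in replicates 1 and 2 and of -0.27, 0.94 and 0.03 in replicate 3, whereas heat shock and SAUR genes (right) lie mostly in the quadrants where both agree in sign.

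Flavonoid, photosynthesis and aquaporin genes had medians of opposite sign in replicates 1 and 2 and in replicate 3. Flavonoid and anthocyanin genes had a median interaction of -0.72 with replicates 1 and 2, where 10 of 18 were negative at an unadjusted p under 0.05 (4.63% of nuclear genes), and of 0.94 in replicate 3 alone, where none was negative, so that the median with all 3 was 0.07, and -0.08 with the block within each treatment. Nuclear photosynthesis genes had -0.39 with replicates 1 and 2, 0.62 in replicate 3 alone and 0.04 with all 3, and plasma membrane aquaporins of the PIP family -0.56, 0.35 and -0.10. Glucosinolate genes were positive in each set (0.44, 0.21 and 0.32), and 18 of 20 were positive with replicates 1 and 2, 7 of them at an unadjusted p under 0.05 (4.71% of nuclear genes).

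The ABA-responsive genes as a whole had no shift that was shared by all 3 replicates and by replicates 1 and 2. ABA genes were called in the mean response of both genotypes at an adjusted p under 0.05 (edgeR) and at least 4-fold, a choice that favours neither genotype. With all 3 replicates these were 874 induced (4.27% of nuclear genes) and 646 repressed genes (3.16%). The response was smaller in *nup85-1* for 52.3% of the induced and 71.7% of the repressed genes, against 57.1% of all nuclear genes. With replicates 1 and 2 there were 812 induced (3.99%) and 800 repressed genes (3.93%), of which 56.3 and 49.0% had a smaller response, against 56.3% of all nuclear genes. For repressed genes the share differed between replicates. Of those called with all 3 replicates, 50.3, 48.9 and 74.1% had a smaller response in replicates 1, 2 and 3 alone. The median interaction along the direction of the response was -0.04 for induced and -0.22 for repressed genes with all 3 replicates, and -0.10 and 0.02 with replicates 1 and 2.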

How the data were processed

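RNA of whole seedlings was sequenced in 12 libraries. Per the methods, the authors checked reads with FastQC, trimmed them with the FASTX-Toolkit, mapped them to TAIR10 with TopHat2 and counted them per gene with featureCounts (versions and strand setting not given in the sources used here), and the deposited values are raw read counts per gene. Here edgeR 4.0.16 (R 4.3.3, limma 3.58.1) was used with TMM factors, its default filter on low counts, 1 mean per group and a quasi-likelihood F test of the interaction. P-values were adjusted by Benjamini-Hochberg over all genes tested, organelle genes included, and nuclear genes are reported. DESeq2 1.42.0, limma-voom, other normalizations and filters, a replicate block and the omission of single libraries were alternatives. Deviations of same-numbered libraries from their group means correlated at 0.56 to 0.76 between the genotypes with ABA and 0.48 to 0.73 under mock. Between ABA and mock they did not in every pair. A block of the number within each treatment was therefore added as an alternative after this was seen. Libraries numbered 1 and 2 also correlated with each other between the genotypes, at 0.40 and 0.46 with ABA and 0.28 and 0.33 under mock. With replicates 1 and 2 only, same-numbered libraries correlated at 0.25 with ABA and 0.21 under mock. Values per replicate alone are differences of log2 CPM with a prior count of 2. The test was run on simulated counts with a common dispersion and no shift shared by same-numbered libraries. It was therefore not checked for the structure between replicates seen here. Names, positions and upstream sequences come from RefSeq on TAIR10.1, which matched 32835 of 33602 gene IDs.

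Named genes were 6 fixed ones (*NUP85*, *RD29A*, *RD29B*, *COR15A*, *COR47* and *ABI5*), every gene called in either set of libraries, and in each direction the 6 largest interactions among genes with at least 10 CPM, an unadjusted p under 0.05 in both sets and the same sign in replicate 3. From each list described, up to 4 members with the lowest p under 0.05 in either set were added. The lists described were the 4 lowest and 4 highest medians, the RD29 group and the core signalling genes. *HSP101*, *HSP90.1*, *HSFA2*, *HSP21*, the ferritins and the further lists were named after their values were seen. Members and lists were chosen with earlier results of these data known, so list counts and medians are descriptions. The authors' methods state no interaction model.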

Additional observations from a re-analysis of the deposited data

Results flagged for a closer look

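The ABA response differed between *nup85-1* and Col-0 by the interaction test itself in 2 genes, with replicates 1 and 2 only (edgeR, adjusted p = 0.0499 for both). The difference was 1.67 on the log2 scale for *FKF1*, positive in both of these replicates with a sign in replicate 3 that depended on the prior count (-0.11 with it and 0.83 without), and -2.43 for *NEET*, negative in both and positive in replicate 3. These calls rest on groups of 2 libraries. Such groups, and those of 3 libraries, are too small for a check of single outlying libraries.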

How the results depend on the processing

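The design compares 3 libraries a group, and depth limits genes with few mock reads. With all 3 replicates the count of 0 genes stayed 0 when single libraries were left out and was 2 without replicate 3, 1 with DESeq2 and 309 without adjustment of p. The count of 2 with replicates 1 and 2 was 68 with DESeq2, 82 without a filter on low counts, 1902 without adjustment and 0 with limma-voom, upper-quartile factors, a filter at CPM 1, organelle genes removed or a replicate block over both treatments. It was 5 with a replicate block within each treatment, chosen after seeing the data, and ranged from 0 to 189 with 1 library left out. Replicate numbers paired the genotypes within a treatment, but ABA with mock only weakly and not in every replicate. Same-numbered ABA and mock libraries correlated at 0.20 to 0.29 in replicates 1 and 3. In replicate 2 they correlated at -0.10 to 0.04. The replicate block over both treatments and the one within each gave medians of 0.0070 and 0.058 (evening clock), -0.36 and -0.36 (PP2C) and -0.16 and -0.15 (ABF and *ABI5*). Neither block reversed any of the 11 list medians given here or any named gene, and neither gave a call with all 3 replicates. The share of ABA genes with a smaller response was 60.5% with all 3 replicates and 52.7% with replicates 1 and 2. It was 71.0 and 65.3% for genes called in Col-0 alone and 49.9 and 39.1% for genes called in *nup85-1* alone, a choice that itself favours that genotype, and ranged over 51.0 to 66.2% and 47.8 to 59.1% with libraries left out. Leaving out libraries moved the medians over -1.60 to -0.35 (heat shock), -0.58 to 0.090 (RD29 group), -0.58 to -0.0024 (sugar starvation), -1.004 to 0.021 (PP2C), -0.10 to 0.74 (evening clock), 0.054 to 1.26 (iron), 0.35 to 0.74 (guard cell), 0.48 to 1.01 (SAUR), 0.033 to 0.53 (receptors), -0.24 to 0.16 (SnRK2) and -0.35 to 0.05 (ABF and *ABI5*). With limma-voom the medians were -0.49 (sugar starvation), 0.055 (RD29 group, as for *RD29A*), 0.47 (SAUR) and -0.16 (receptors), and *RD29B* was 0.31. Without both replicate 3 libraries labelled *nup85-1*, chosen after seeing *NUP85* in them, the share was 50.5% and the medians 1.31 (iron), 0.45 (guard cell), 0.89 (SAUR), 0.043 (PP2C), -0.0039 (RD29 group), 0.087 (evening clock) and 0.067 (ABF and *ABI5*, as for *ABI5*), and single genes turned to 1.64 (*RD29B*), -0.0032 (*COR15A*), 0.34 (*HAI1*), 0.48 (*HAB1*), 0.061 (*SNRK2.8*) and -0.32 (*ABF1*). Most named genes were chosen by their p, and some also by their sign, in these same libraries, so a kept direction is partly built in. Among the fixed genes (*NUP85*, *RD29A*, *RD29B*, *COR15A*, *COR47* and *ABI5*) only *COR47* kept its direction in every setting. Of all 45 named genes 33 kept their direction in every setting. The other 12 reversed with some library left out, over -2.66 to 0.94 (*NUP85*), -0.32 to 0.20 (*RD29A*), -2.85 to 1.51 (*RD29B*), -0.25 to 0.41 (*COR15A*), -0.47 to 0.49 (*ABI5*), -3.54 to 0.82 (*NEET*), -2.15 to 0.60 (*RD20*), -1.91 to 0.37 (*HAI1*), -1.47 to 0.79 (*HAB1*), -0.72 to 3.09 (*FRO2*), -1.53 to 0.52 (*SNRK2.8*) and -0.36 to 0.73 (*ABF1*). The cause of these changes was not tested.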

Other observations

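Among gene groups not described above, genes annotated as ribosomal proteins had a median interaction of 0.13 with all 3 replicates, -0.01 with replicates 1 and 2 and 0.42 in replicate 3 alone. Of these, 225 of 300 tested were positive with all 3 replicates. The ABA response of 12 of them was a repression in *nup85-1* and of 29 in Col-0 (edgeR, adjusted p under 0.05), against 15 and 18.1% of nuclear genes, while 12 in each genotype were induced, against 17.3% in *nup85-1* and 19.2% in Col-0. Root markers had medians of 0.08, -0.37 and 0.32 in the same order, with summed levels of 45.1 to 78.6 CPM in *nup85-1* with ABA, 68.4 to 90.3 CPM in *nup85-1* mock, 49.5 to 78.9 CPM in Col-0 with ABA and 66.6 to 95.8 CPM in Col-0 mock. Leaf markers had 0.02, -0.53 and 0.85. The sign of photosynthesis, root and leaf genes thus changed together between replicates. The leaf markers are themselves genes of photosynthesis, so the leaf and photosynthesis lists are not independent. The part of tissue composition in the other results was not tested.

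Core hypoxia genes, which serve metabolism under low oxygen, were induced in 20 of 22 cases in *nup85-1* and 19 in Col-0 (edgeR, adjusted p under 0.05, 17.3 and 19.2% of nuclear genes). Their median interaction was 0.31 with all 3 replicates and 0.11 with replicates 1 and 2. Stress factors of the NAC, HD-Zip and MYB families had -0.08 and -0.24, with 2 of 17 lower in *nup85-1* under mock and 4 with ABA. Rapid ERF, ZAT and CBF genes, many of them responsive to touch, were higher in *nup85-1* with ABA in 25 of 25 cases (median difference 0.79) and under mock in 22 (0.71), so that their interaction had a median of 0.20 only. Phi glutathione S-transferases, detoxifying enzymes, were lower in *nup85-1* in 8 of 8 cases with ABA (median -0.40) and in 7 under mock (-0.38). Of the 20454 nuclear genes tested, 10228 were lower in *nup85-1* with ABA and 10083 under mock. Cuticular wax genes had a median interaction of -0.23 with all 3 replicates and -0.13 with replicates 1 and 2. In each replicate alone 6 of 12 were negative, as were 14.3% of all nuclear genes. Genes of the NUP107-160 subcomplex with *HOS1* had -0.13 and -0.09, and 15 Mediator subunits -0.22 and -0.03.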
